A study of Rattus norvegicus with 9 samples.

Results

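Integrin subunit genes of chondrocytes and other matrix-embedded cells were examined in bulk RNA sequencing of rat knee cartilage. The members, Itga1, Itga2, Itga5, Itga6, Itga10, Itga11, Itgav, Itgb1, Itgb3, and Itgb5, were chosen by gene name, and all 10 were found among the 32043 genes of the expression table. A mean of at least 0.5 FPKM (fragments per kilobase of gene, divided by a size given to each library) over the 9 libraries was required for testing. This was passed by 13898 genes and 9 of the 10 members. Itga2, at a mean of 0.477 FPKM, did not pass and is described by its values.

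The study asked how Shengyu decoction (SYD), a herbal prescription of traditional Chinese medicine, acts on knee osteoarthritis (KOA). There were 3 libraries in each of 3 groups of male Sprague–Dawley rats, 8 weeks old when obtained. Control rats had the joint capsule opened and sutured only. In the model group KOA was induced by the modified Hulth method, in which the medial collateral and anterior cruciate ligaments are cut and the medial meniscus is removed, followed by forced activity. The SYD group had the same surgery and then received SYD extract by gavage for 4 weeks. The labels give no dose, whereas the study's text names the highest of its 3 doses for the sequenced group. Only the control and model groups are named for sequencing in its methods. The extraction protocol in the labels speaks of retinas, although every label gives cartilage as the tissue. Nothing in the labels says whether each library came from a separate rat, so the p-values measure only the spread between these libraries.

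An integrin is a pair of an alpha and a beta subunit that binds a matrix protein outside the cell and couples to the actin cytoskeleton through talin and kindlin inside it. Itga1, Itga2, Itga10, and Itga11 pair with Itgb1 to bind collagens, and Itga10 is known as a collagen receptor of chondrocytes. Itga5 with Itgb1 is the classical fibronectin receptor, and Itgav pairs with Itgb3 or Itgb5 to bind vitronectin and osteopontin through their RGD motif. Itga6 binds laminins, proteins of basement membranes. Itgb3 also pairs with Itga2b on platelets and megakaryocytes and with Itgav on osteoclasts.

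The libraries differed widely in quality. Reads recovered from the FPKM values came to 14914121 to 19510537 per library. Mitochondrial genes took 4.05% to 4.86% of them in the control group, 39.5% to 90.7% in the model group, and 23.7% to 72.7% in the SYD group. Model libraries 1 and 3 and SYD library 3 were above 70%, which left 1744769 non-mitochondrial reads in model library 1. Of 5734 genes with a control mean of at least 5 FPKM, 633, 144, and 451 were listed at 0 in the 3 model libraries, against 32 to 115 in the SYD libraries. In model library 1 the members rested on 0 to 344 reads each. A gene was called when its unadjusted p was under 0.05 and its log2 fold change lay beyond 1 in either direction. Of all genes tested, 14.7% were called in model against control, 4.15% in SYD against model, and 16.5% in SYD against control, the last made up of 7.25% higher and 9.22% lower. In bulk tissue, fewer cells of a type and less RNA per cell cannot be told apart.

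The labelled tissue was checked against 12 chondrocyte markers. Their summed level was 449 to 11156 FPKM in controls, 200 to 811 FPKM in model cartilage, and 120 to 1190 FPKM after SYD, and Matn1 was at 0 in every model and SYD library. Col2a1, the main collagen of cartilage, was present in every library at 39.0 to 8323 FPKM. Markers of osteoclasts, osteoblasts, fibroblasts, endothelium, neutrophils, B cells, and erythroid cells were present as well, so that the tissue was a mixture.

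The beta subunit genes were the most abundant members in the control group. Itgb1 stood highest at 38.2 ± 5.55 FPKM (mean ± SD, n = 3), Itgb3 followed at 34.6 ± 2.71 FPKM, and their ranges overlapped. Itgb5 came next at 21.4 ± 7.44 FPKM. Among the alpha subunits, Itga6 led at 9.29 ± 1.86 FPKM, followed by Itgav, Itga10, Itga5, and Itga11 at 7.50, 6.63, 5.22, and 4.16 FPKM, each overlapping its neighbour. Itga1 and Itga2 were the lowest, at 1.08 and 0.810 FPKM. By mean level Itgb3 ranked 4 in the model group and 5 in the SYD group. Itgb1 ranked 1 in all 3 groups, and in the SYD group Itga10 and Itgav were the highest alpha subunit genes, with overlapping ranges. Itga10 had the higher mean there through SYD library 1, and Itgav was the higher of the pair in SYD libraries 2 and 3.

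**Figure D1:**
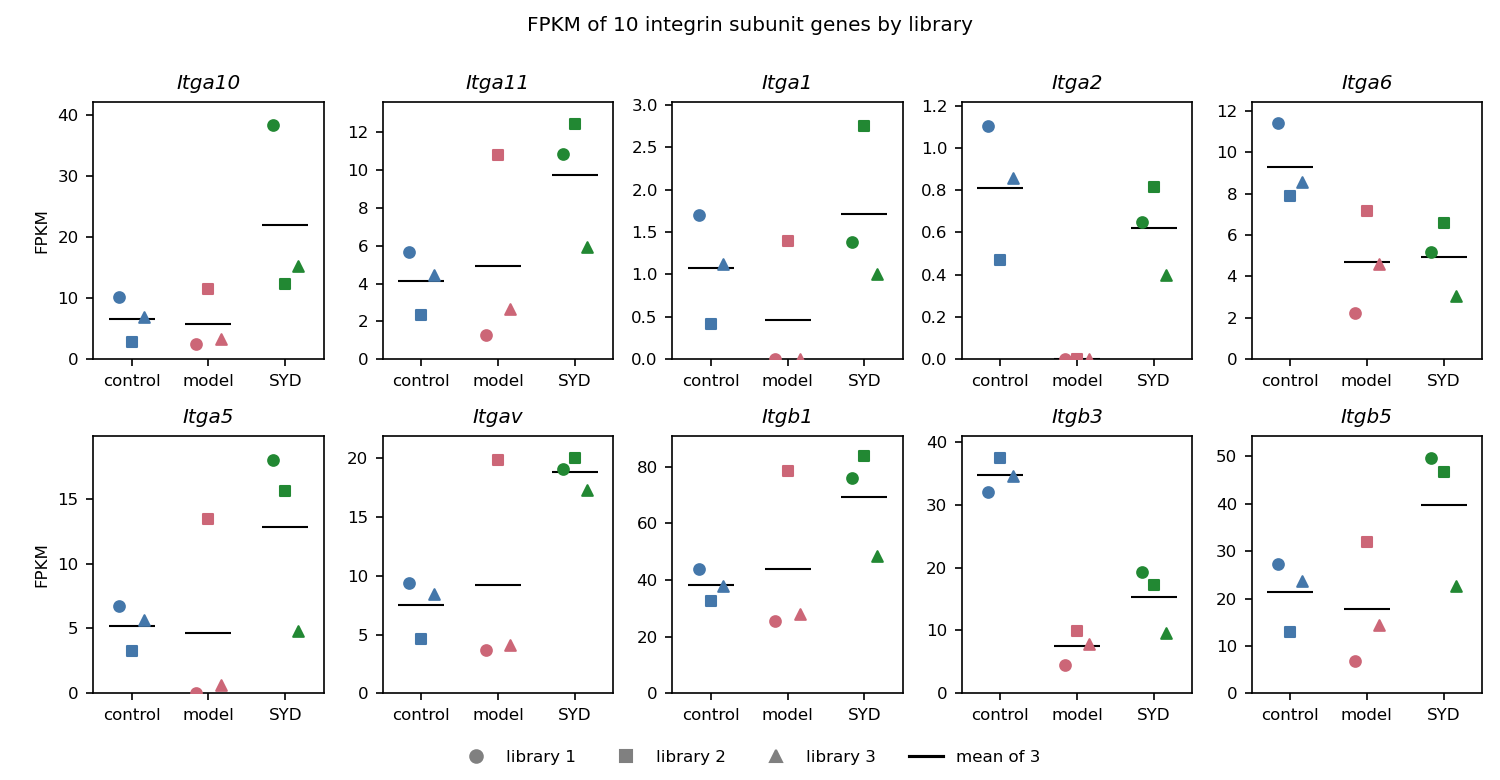
FPKM of the 10 integrin genes (y axes, linear, a separate scale for each gene) in the 3 control, 3 model, and 3 SYD libraries, with points for libraries and lines for group means. Itgb3 lay between 31.9 and 37.3 FPKM in the control group and below 20 FPKM in every other library, while model library 2 stood above both other model libraries for each gene but Itga2.

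Itgb3 was the member with the clearest difference from the control group. Its gene lies on chromosome 10 from 89509989 to 89564679 on the plus strand in the coordinates of the authors' table. Controls gave 31.9, 37.3, and 34.6 FPKM, model cartilage gave 4.58, 9.96, and 7.85 FPKM, and SYD-treated cartilage gave 19.2, 17.1, and 9.63 FPKM. Every control library was thus above every model and SYD library, whereas the model and SYD libraries overlapped. Itgb3 fell by 2.13 on the log2(FPKM + 1) scale in the model group (standard error [SE] 0.31, limma adjusted p = 0.0382). This met the call criteria under all 16 alternative settings, with limma adjusted p from 0.00876 to 0.254. After SYD it fell by 1.18 against controls (SE 0.26, limma adjusted p = 0.0350), and without SYD library 3 the difference was -0.89 and short of the fold required. Its limma adjusted p was 0.0159 to 0.126 when single libraries were left out. The SYD group stood 0.95 above the model group with a 95% confidence interval of -0.04 to 1.94, and this difference did not pass the test (limma adjusted p = 0.723).

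Itgb1 and Itgb5, the other two beta subunit genes, did not follow Itgb3. Itgb1, on chromosome 19 from 56705171 to 56753195 on the plus strand, had 43.8, 32.7, and 38.0 FPKM in controls, 25.6, 78.4, and 28.2 FPKM in model cartilage, and 76.1, 83.7, and 48.6 FPKM after SYD. Model library 2 was as high as the SYD libraries, and both other model libraries were below the control group. Its log2 difference between the model and control groups was 0.02 (SE 0.45), with an interval of -1.08 to 1.12. All 3 SYD libraries were above all 3 control libraries, with a log2 difference of 0.82 (SE 0.24, limma unadjusted p = 0.0153, adjusted p = 0.0692), which is below the fold required for a call. It was -0.70 after rescaling to TPM (each library's values scaled to 1 common sum, mitochondrial genes included), where the median of all genes was -1.31.

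Itgb5, on chromosome 11 from 66829285 to 66944472 on the minus strand, had 27.3, 13.0, and 23.7 FPKM in controls, 6.94, 31.9, and 14.3 FPKM in model cartilage, and 49.6, 46.8, and 22.6 FPKM after SYD. The groups overlapped in every comparison, and none of its 3 differences passed the test. The log2 difference was -0.43 (SE 0.57) for model against control, 1.28 (SE 0.58) for SYD against model, and 0.85 (SE 0.40) for SYD against control. The last was -0.65 after rescaling to TPM, where the median of all genes was -1.31.

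The share of each gene among the beta subunits was compared within libraries, since a share does not depend on how libraries were scaled against each other. This comparison was chosen after the values had been seen. Itgb3 made up 31.0%, 44.9%, and 35.9% of the summed FPKM of Itgb1, Itgb3, and Itgb5 in controls. The share was 12.3%, 8.29%, and 15.6% in model cartilage and 13.3%, 11.6%, and 11.9% after SYD. No control library overlapped with any other library, and the mean share differed from that of the control group by -25.2 percentage points in the model group and by -25.0 points in the SYD group (two-sided exact permutation test, p = 0.1 for each, the smallest p that 3 against 3 allows). The SYD and model groups differed by 0.185 points (exact p = 1). The share of Itgb1 was 56.0% to 69.0% in the model group and 52.5% to 60.1% in the SYD group, and 39.4% to 42.5% in the control group. As the 3 shares sum to 100%, this is no result separate from the lower share of Itgb3.

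**Figure D2:**
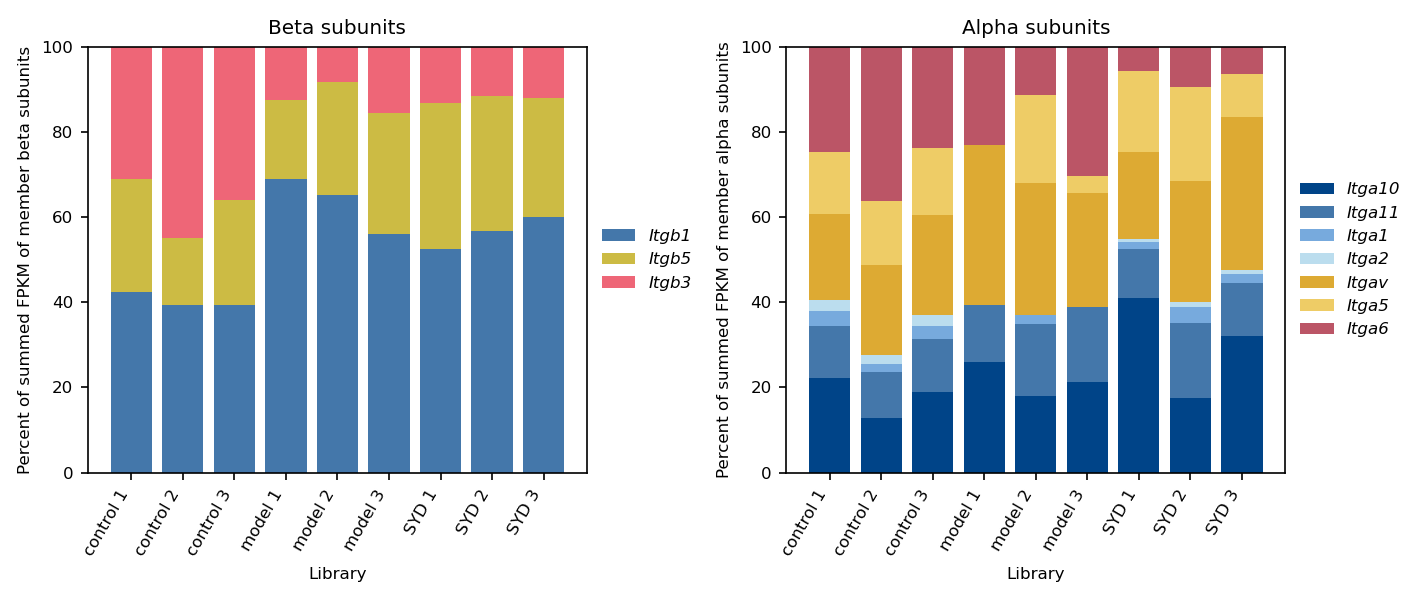
Percent of the summed FPKM of the 3 member beta subunit genes (left) and of the 7 member alpha subunit genes (right) taken by each gene (y axes, stacked bars from 0 to 100) in each of the 9 libraries. Itgb3 took 31.0% to 44.9% of the beta subunits in the control libraries and 8.29% to 15.6% elsewhere, and Itga6 took 5.55% to 9.35% of the alpha subunits in the SYD libraries.

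Markers of other cells that use Itgb3 also differed between the groups. The summed level of 7 platelet markers was 110 to 347 FPKM in controls, 6.26 to 152 FPKM in model cartilage, and 17.1 to 94.8 FPKM after SYD. Of the 6 platelet markers tested, 2 were called lower in the model group and 4 in the SYD group against the control group, beside 11.2% and 9.22% of all genes. All 6 were called lower in both after rescaling to TPM, where 10445 and 6029 of 13898 genes were called. With only the 6 libraries under 50% mitochondrial reads their median log2 differences were -3.42 and -2.22. All 6 were called lower there in SYD against control, where 2603 of all genes were called. Gp6 was at 0 in all 3 model libraries and in SYD libraries 1 and 2. Gp1bb was at 0 in all 9 libraries, the control libraries included. Itga2b, the platelet partner of Itgb3, had 8.58, 22.4, and 8.28 FPKM in controls, 5.18, 0, and 11.9 FPKM in model cartilage, and 0.691, 1.84, and 7.99 FPKM after SYD. The 8 osteoclast markers summed to 616 to 1064 FPKM, 450 to 1792 FPKM, and 2010 to 2693 FPKM in the control, model, and SYD groups, and 6 of 8 were called higher in the SYD group than in the control group (0 after rescaling to TPM). In SYD against model 4 of 8 were called higher, also 4 after rescaling to TPM and 0 with only the 6 libraries under 50% mitochondrial reads. The part of these markers in the levels of Itgb3 and the other members was not tested.

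Of the collagen-binding alpha subunits, Itga10 was called higher after SYD. Its gene is on chromosome 2 from 184182869 to 184202172 on the plus strand. Controls gave 10.2, 2.81, and 6.84 FPKM, model cartilage gave 2.56, 11.6, and 3.27 FPKM, and SYD-treated cartilage gave 38.4, 12.4, and 15.4 FPKM. All SYD libraries were above all other libraries, and SYD library 1 was far above the rest. On the log2 scale Itga10 rose by 1.83 against the model group (SE 0.64, limma unadjusted p = 0.0263, adjusted p = 0.723) and 1.56 against the control group (SE 0.56, unadjusted p = 0.0321, adjusted p = 0.110), so that neither call held after adjustment over all genes. The difference from the control group was 0.19 and not called after rescaling to TPM, where the median of all genes was -1.31. Without SYD library 1 the differences were 1.36 and 1.09, and neither met the call. The call against the model group was also lost without SYD library 3 and without model library 1 or 3, and that against the control group without SYD library 3 and without control library 2 or 3. Between the model and control groups the log2 difference was -0.27 (SE 0.64).

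Itga11, the collagen receptor subunit of fibroblast-like cells, lies on chromosome 8 from 63146001 to 63254407 on the plus strand. It had 5.65, 2.35, and 4.47 FPKM in controls, 1.30, 10.8, and 2.67 FPKM in model cartilage, and 10.8, 12.4, and 5.91 FPKM after SYD. All SYD libraries were above all control libraries, with a log2 fold change of 1.06 (SE 0.36, limma unadjusted p = 0.0278, adjusted p = 0.101). It was -0.25 after rescaling to TPM, where the median of all genes was -1.31. The call was lost without SYD library 1 or 2 and without control library 2 or 3, with differences of 0.77 to 1.13. Against the model group the groups overlapped and the difference of 1.15 (SE 0.67) did not pass the test.

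Itga1 and Itga2 were sparse. Itga1, on chromosome 2 from 46653193 to 46812238 on the minus strand, had 1.70, 0.411, and 1.12 FPKM in controls, 0, 1.39, and 0 FPKM in model cartilage, and 1.38, 2.75, and 1.01 FPKM after SYD, and none of its differences passed the test. Itga2, its neighbour on the same strand from 46523948 to 46621481, had 1.11, 0.469, and 0.856 FPKM in the control group and 0.650, 0.817, and 0.398 FPKM after SYD. It was listed at 0 in all 3 model libraries, including model library 2. Set against the mean level that 3 reads per library would give in the model group, Itga2 was at least 6.48-fold higher in the control group and at least 4.98-fold higher in the SYD group, where this floor covers counting error only (two-sided exact permutation test, p = 0.1 for each, the smallest p possible).

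The collagen-binding subunits together made up 40.4%, 27.7%, and 36.9% of the summed alpha subunit FPKM in controls, 39.3%, 37.1%, and 38.9% in model cartilage, and 54.8%, 40.2%, and 47.5% after SYD. The SYD group was 9.08 percentage points above the model group with no overlap (exact permutation p = 0.1) and 12.5 points above the control group with overlap (exact p = 0.2). When Itga6 was left out of the sum, these differences were 1.55 and 2.53 points, and the libraries overlapped. Of the 12 chondrocyte markers, 7 were called lower in the model group and 2 in the SYD group against the control group, and none was called in SYD against model, the median log2 difference of SYD against control being -1.90. With only the 6 libraries under 50% mitochondrial reads none was called lower against the control group, although the median was -3.12 in model against control (-3.09 over all libraries) and -0.84 in SYD against control, and 5 of 12 were called higher in SYD against model (2 after rescaling to TPM and 1 in the voom fit). After rescaling to TPM 11 were called lower in the model group and 3 in the SYD group against the control group. Of all 13898 genes, 10445 and 6029 were called there. The part of these cells in the shares was not tested.

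Fibroblast, mural, and endothelial markers were called higher in the SYD group than in the control group for 5 of 8, 6 of 7, and 6 of 9 genes tested, beside 7.25% of all genes. After rescaling to TPM these counts were 0, 2, and 0, where 6029 of 13898 genes were called in either direction. Osteoblast markers were called higher in 2 of 8 genes and erythroid markers lower in 3 of 6, and none of 8 macrophage markers was called. Rescaled to TPM, 1 osteoblast, 6 erythroid, and 2 macrophage markers were called lower and none higher, and with only the 6 libraries under 50% mitochondrial reads all 6 erythroid markers were called lower. The part of these cells in the levels of Itga11, Itgav, and the other members was not tested.

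Of the RGD-binding alpha subunits, Itgav was the member with the lowest adjusted p in SYD against control. The gene is on chromosome 3 from 68838189 to 68926639 on the plus strand. Controls gave 9.43, 4.62, and 8.45 FPKM, model cartilage gave 3.72, 19.8, and 4.09 FPKM, and SYD-treated cartilage gave 19.1, 20.04, and 17.3 FPKM. The SYD libraries lay close together and above all control libraries, and model library 2 was at their level. After SYD, Itgav rose by 1.27 on the log2 scale against controls (SE 0.26, limma adjusted p = 0.0277), but the difference was -0.15 after rescaling to TPM, where the median of all genes was -1.31. Without control library 2 it was 0.99 and just short of the fold required, and over the fits that left out a library the limma adjusted p was 0.0388 to 0.0914. Against the model group the difference of 1.32 had an interval of -0.13 to 2.77 and did not pass the test (limma adjusted p = 0.723). Between model and control it was -0.05 (SE 0.65).

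Itga5, the fibronectin receptor subunit, on chromosome 7 from 134478968 to 134502837 on the minus strand, varied widely between libraries. It had 6.71, 3.29, and 5.66 FPKM in controls, 0, 13.4, and 0.630 FPKM in model cartilage, and 18.0, 15.6, and 4.78 FPKM after SYD. The model libraries ranged from no reads to 1860 reads, and no difference passed the test. The log2 difference was -1.08 (SE 1.02) for model against control, 2.09 (SE 1.07) for SYD against model, and 1.01 (SE 0.51) for SYD against control, the last being -0.32 after rescaling to TPM (median of all genes -1.31). Without model library 2 the first was -2.24 (limma adjusted p = 0.0280) and the SYD against model difference was 3.26 (adjusted p = 0.107), and without SYD library 3 the SYD against control difference was 1.55 (adjusted p = 0.0253).

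Itga6, the laminin receptor subunit, was below the control range in both KOA groups. Its gene is on chromosome 3 from 56617268 to 56689428 on the plus strand. Controls gave 11.4, 7.88, and 8.58 FPKM, model cartilage gave 2.25, 7.16, and 4.61 FPKM, and SYD-treated cartilage gave 5.19, 6.60, and 3.04 FPKM. No library of the KOA groups reached the control range. The log2 difference was -0.94 for model against control (SE 0.41, limma unadjusted p = 0.0608, adjusted p = 0.287) and -0.82 for SYD against control (SE 0.28, unadjusted p = 0.0261, adjusted p = 0.0968), and neither met the call. Its share among the alpha subunits was 5.55%, 9.35%, and 6.37% in the SYD libraries, below the 11.2% to 30.2% of the model group and the 23.8% to 36.1% of the control group (exact p = 0.1 for each). Its level in the SYD group differed from that of the model group by 0.12 on the log2 scale (SE 0.50) and did not pass the test, with an interval of -1.08 to 1.31, and the differences of the other tested alpha subunits were all above 0. The share was likewise compared after the values had been seen. Other shares that did not overlap, at the same exact p of 0.1, were higher by 10.2 points for Itgav and 4.07 for Itga11 in model against control and by 9.02 for Itgb5 in SYD against control. The share of Itga2 did not overlap in any of the 3 comparisons.

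**Figure D3:**
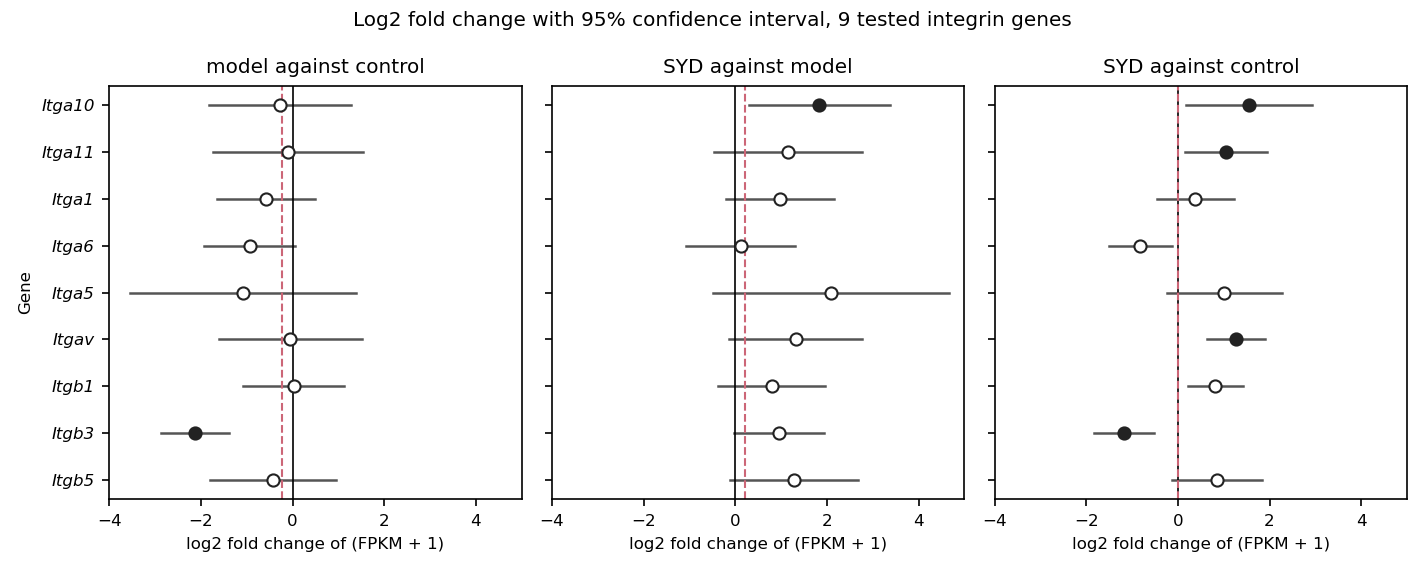
Log2 fold change of (FPKM + 1) with its 95% confidence interval (x axis) for the 9 tested integrin genes (y axis) in the 3 comparisons. Filled points are genes with an unadjusted p under 0.05 and a log2 fold change beyond 1 in either direction, and the dashed line is the median of all 13898 tested genes. Itgb3 was called lower against the control group in both comparisons, and Itgav, Itga10, and Itga11 were called higher in SYD against control. After rescaling to TPM Itgav and Itga11 were below 0 there, with the median of all genes at -1.31.

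The members were then counted together by the same criteria. For model against control 1 of 9 members was called, Itgb3, beside 14.7% of all genes tested. It was also the only member past an adjusted p of 0.05, beside 2.59% of all genes. Libraries did not overlap for 2 of 9 members, Itgb3 and Itga6, beside 28.7% of all genes. The difference was above 0 for 1 of 9 members and 38.3% of all genes, with a median of -0.43 for the members and -0.23 for all genes. The members' median turned to 0.85 with only the 6 libraries under 50% mitochondrial reads, beside -0.01 for all genes. It was 0.0873 in the voom fit, beside -0.52 for all genes. In the same 6 libraries the median log2 difference of model against control was 2.30 for endothelial and 2.72 for mural markers, against 0.20 and 0.90 over all libraries. Their part in the members' levels was not tested.

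For SYD against model 1 of 9 was called, Itga10, beside 4.15% of all genes, and it was the single member whose libraries did not overlap, beside 11.1% of all genes. All 9 differences were above 0, as were 61.9% of those of all genes, and the median was 1.15 for the members and 0.22 for all genes. None of the 13898 genes tested (0%) had an adjusted p under 0.05 in limma, whereas 731 had an unadjusted p under 0.05. The voom fit to recovered reads also gave 0 after adjustment, and limma without the filter on low values gave 2 of 21960 genes.

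For SYD against control 4 of 9 were called, beside 16.5% of all genes. These were 3 higher and 1 lower, beside 7.25% and 9.22% of all genes. An adjusted p under 0.05 was reached by 2 of 9, Itgav and Itgb3, beside 17.3% of all genes. Neither had an adjusted p under 0.05 with all 9 libraries in 1 fit (0.282 and 0.126), where 253 genes did against 2407, or with the replicate block (0.0846 and 0.0875), where 0 did, with 2259 genes called by the unadjusted rule. Libraries did not overlap for 6 of 9 members, 4 higher and 2 lower, beside 42.5% of all genes. The difference was above 0 for 7 of 9 and for 49.8% of all genes, with a median of 0.85 for the members and 0 for all genes. After rescaling to TPM no member was called higher and 2, Itgb3 and Itga6, were called lower, beside 6029 of 13898 genes called in either direction. The 3 comparisons share libraries, so their values are not independent of each other.

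Model library 2 decided much of the contrast between the SYD and model groups. It also stood apart in markers of other cells. The summed level was 27.1, 278, and 92.6 FPKM for endothelial and 26.8, 429, and 168 FPKM for mural markers in model libraries 1 to 3. Fibroblast markers summed to 1344, 5922, and 1037 FPKM there, and erythroid markers to 38136, 296, and 42429 FPKM. The part of these cells in the members' levels was not tested. Without model library 2, 8 of the 9 members were called higher in SYD against model by the unadjusted rule, with none past the adjusted threshold. Of all 13898 genes, 2495 were called in that fit, against 577 over all libraries. The model libraries left, 1 and 3, held 90.7% and 81.3% mitochondrial reads. Without model library 1, or without model library 3, no member was called, beside 423 and 379 of all genes. When only the 6 libraries with under 50% mitochondrial reads were kept (all control libraries, model library 2, and SYD libraries 1 and 2), Itgb3 was still 1.70 lower in the model group than in the control group on the log2 scale (limma adjusted p = 0.0202). In the same libraries Itgb1 was 1.03 higher in the model group than in the control group. In SYD against control 5 of 9 members were called in these libraries, beside 2603 of 13898 genes. Itgb3, at -0.89 with a limma adjusted p of 0.0159, fell just short of the fold required. The single model library of these fits was assumed to vary like the other groups, and this restriction was chosen after the data had been seen.

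Pairs of members varied together across the 9 libraries to differing degrees. The Pearson correlation of log2(FPKM + 1) was 0.737 to 0.979 for the 21 pairs that held neither Itga6 nor Itgb3. For Itgb3 with the 8 other tested members it was 0.109 to 0.842, with a median of 0.299, and the highest was with Itga6. The libraries share group, depth, and mitochondrial share, so these values are descriptive. Among genes that are not members, the closest to Itgb3 was Klhl42 (0.975), followed by Slc7a1, a cationic amino acid transporter, and Arhgap17. The closest to Itga10 was Plcd1 (0.978), to Itga11 Sspn (0.985), to Itgav Dsel (0.991), to Itgb1 Gprc5b (0.990), to Itga5 Lamp2 (0.995), a lysosomal membrane protein, to Itgb5 Wdfy3 (0.985), to Itga6 Virma (0.967), and to Itga1 Col5a1 (0.980), a fibrillar collagen.

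The promoter sequences of Itga10, Itgav, and Itgb1 are shown as those of 3 of the 4 members that were above the control range in every SYD library. They are from RefSeq on build GRCr8 and run from 250 bases before to 50 bases after the start of the gene, on the strand of the gene. GRCr8 is not the build of the authors' table, since none of the 10 members has the same start in both. Capitals mark GGGCGG on either strand, a match to the GC box bound by Sp family factors.
Itga10, chr2:186871461-186871760, plus strand: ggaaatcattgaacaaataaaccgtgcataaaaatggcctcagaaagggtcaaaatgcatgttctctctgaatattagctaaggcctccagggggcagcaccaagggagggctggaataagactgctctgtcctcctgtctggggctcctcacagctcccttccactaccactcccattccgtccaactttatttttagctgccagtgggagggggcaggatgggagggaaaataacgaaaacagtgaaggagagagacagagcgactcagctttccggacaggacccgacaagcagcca
Itgav, chr3:89245132-89245431, plus strand: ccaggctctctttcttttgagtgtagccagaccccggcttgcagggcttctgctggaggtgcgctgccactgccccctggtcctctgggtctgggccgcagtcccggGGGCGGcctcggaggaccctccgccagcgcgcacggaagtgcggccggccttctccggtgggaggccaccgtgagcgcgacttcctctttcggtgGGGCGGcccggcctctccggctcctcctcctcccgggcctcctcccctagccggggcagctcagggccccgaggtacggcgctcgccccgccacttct
Itgb1, chr19:73602027-73602326, plus strand: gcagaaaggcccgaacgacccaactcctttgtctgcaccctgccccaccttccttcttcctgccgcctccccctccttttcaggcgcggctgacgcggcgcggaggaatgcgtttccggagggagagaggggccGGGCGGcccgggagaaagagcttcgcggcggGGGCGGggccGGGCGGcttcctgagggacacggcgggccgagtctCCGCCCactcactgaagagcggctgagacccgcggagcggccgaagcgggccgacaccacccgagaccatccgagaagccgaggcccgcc
The Itgb1 window held 4 matches to GGGCGG and 35 CpG dinucleotides, that of Itgav 2 and 27, and that of Itga10 0 and 6. Among all 33469 promoters of the same length, 33.1% held GGGCGG, and the median number of CpG dinucleotides was 7. Windows were found for 8 members, and of the others those of Itga2, Itga5, and Itga11 held 3, 2, and 1 matches and those of Itga1 and Itgb5 none. None of the 8 windows held TATAAA, the core of the TATA box, on either strand, whereas 14.2% of all promoters did. The AP-1 motif TGANTCA was also absent, and 7.33% of all promoters held it. The same was true of the CCAAT box, found in 37.5% of all promoters. Itga6 and Itgb3 were not among the promoters used here.

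The other integrin subunit genes fell into contrasting sets. Of 16 that are not members, 13 were tested. In model against control 5 were called lower and none higher, and in SYD against control 6 were called lower and 2 higher, while none was called in SYD against model (limma, 0 also at an unadjusted p under 0.05). Rescaled to TPM, 10 were called lower in model against control, and 8 lower and 1 higher in SYD against control. Of all 13898 genes, 10445 and 6029 were called there. With only the 6 libraries under 50% mitochondrial reads their median log2 difference in model against control was -1.19, against -0.61 over all libraries. Over all libraries as deposited, the lower calls were all among the 9 integrins of leukocytes and platelets. Itgae, also of these 9, was instead 0.76 higher in SYD against control (SE 0.19, limma adjusted p = 0.0480), as was Itga3, a laminin-binding subunit, by 0.68 (SE 0.12, limma adjusted p = 0.0195). Both were below the fold required for a call, and after rescaling to TPM the differences were 0.15 and 0.19. Itgam, the alpha subunit of the myeloid complement receptor, had 8.61 to 9.70 FPKM in controls, 1.65 to 2.40 FPKM in model cartilage, and 1.40 to 2.52 FPKM after SYD. It fell by 1.78 in the model group (SE 0.29, limma adjusted p = 0.0418) and by 1.74 in the SYD group (SE 0.20, limma adjusted p = 0.00917). Itgal, Itgb2, and Itga4, further leukocyte subunits, fell by 1.72, 1.74, and 1.18 in SYD against control (limma adjusted p = 0.0107, 0.0167, and 0.0250). Itgb7, the partner of Itga4 and Itgae on lymphocytes, fell by 2.16 in model against control and by 1.96 in SYD against control by the unadjusted rule (limma adjusted p = 0.164 and 0.0528). Neutrophil and B cell markers were called lower in SYD against control for 5 of 7 and 6 of 7 genes tested and in model against control for 3 and 6 (7 of 7 and 6 of 7 with only the 6 libraries under 50% mitochondrial reads), and their part in these results was not tested.

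The subunits called higher were Itga7 and Itgb4, both laminin-binding. Itga7, known from muscle, had 0.0847 to 0.737 FPKM in the control group and 3.34 to 4.48 FPKM after SYD, a log2 fold change of 1.78 (SE 0.23, limma adjusted p = 0.0105). Model libraries 1 to 3 had 0, 3.81, and 7.16 FPKM. Itgb4, the partner of Itga6 in hemidesmosomes, had 0.279 to 1.01 FPKM in the control group and 2.03 to 5.54 FPKM after SYD, a log2 fold change of 1.66 (SE 0.37, limma adjusted p = 0.0349) that was 1.03 and not called after rescaling to TPM. Its model libraries had 0, 7.90, and 2.92 FPKM. In SYD against model the log2 differences of Itga7 and Itgb4 were 0.48 (SE 0.81) and 0.63 (SE 0.86), and neither passed the test. Of the mural markers, which include smooth muscle genes, 6 of 7 were called higher in SYD against control (2 after rescaling to TPM), beside 7.25% of all genes. None of 8 skeletal muscle markers was called, although all 8 differences were above 0, with a median of 1.38. The part of these cells in the levels of Itga7 and Itgb4 was not tested.

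**Figure D4:**
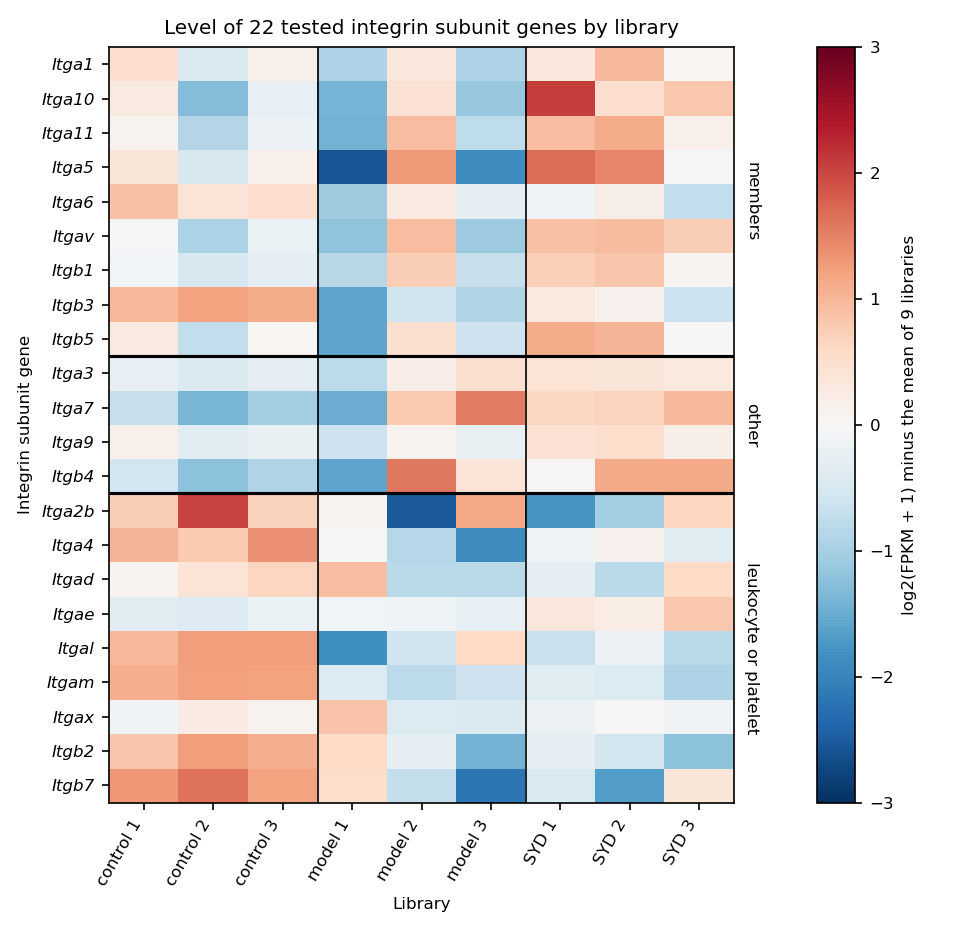
Log2(FPKM + 1) of the 22 tested integrin subunit genes (y axis) in the 9 libraries (x axis), as the difference from the mean over libraries (color, from blue for lower to red for higher). Horizontal lines part members, other subunits, and subunits of leukocytes or platelets, and Itgb3 and Itgam were above their mean in the 3 control libraries and below it in the 3 model libraries.

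Ligands of the members were examined as a separate set. Of 16 collagen genes, 5 were called lower in model against control, 2 higher in SYD against model, and 4 higher in SYD against control, none past the adjusted threshold. With only the 6 libraries under 50% mitochondrial reads, none was called lower in model against control and 2 were called higher, and the median log2 difference turned from -0.87 to 0.75. After rescaling to TPM none was called higher in SYD against control. Col1a1, the main collagen of bone and fibrous tissue, had 4426, 1962, and 3225 FPKM in controls, 1211, 4944, and 691 FPKM in model cartilage, and 6597, 5957, and 3991 FPKM after SYD. Its groups overlapped in each comparison, as did those of Col1a2, the other chain of the same collagen, at 450 to 3718 FPKM. Among 17 tested RGD ligands, 1 was called lower in model against control, 2 higher in SYD against model, and 4 higher in SYD against control (0 after rescaling to TPM). Spp1, which encodes osteopontin, a ligand of the Itgav pairs, had 489, 238, and 471 FPKM in controls, 618, 2406, and 399 FPKM in model cartilage, and 2098, 1735, and 2896 FPKM after SYD. On the log2 scale it rose by 2.52 in SYD against control (SE 0.43, limma adjusted p = 0.0186), which was 0.98 after rescaling to TPM, and Fn1, which encodes fibronectin, differed by 1.18 (SE 1.08) and did not pass the test. Ibsp, which encodes bone sialoprotein, was not called in any comparison.

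Of 9 tested laminin and basement membrane genes, none was called in model against control or in SYD against model, and 3 were called higher in SYD against control. With only the 6 libraries under 50% mitochondrial reads 6 were called higher in each comparison with the control group, and the median in model against control was 1.40 against 0.09 over all libraries. Lamb2 was higher by 1.94 on the log2 scale (SE 0.31, limma adjusted p = 0.0161) and Lama5 by 1.76 (SE 0.27, limma adjusted p = 0.0155). After rescaling to TPM none of the 9 was called there, and 2 were called lower in model against control, beside 10445 of all 13898 genes called. Hspg2 and Nid1, which encode perlecan and nidogen, were not called in any comparison.

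The machinery that couples integrins to actin was measured through 39 tested genes of 40. In model against control 3 were called higher and 2 lower, in SYD against model none, and in SYD against control 5 higher and 3 lower. Rescaled to TPM, 31 were called lower in model against control and 12 in SYD against control, and none higher. Of all 13898 genes, 10445 and 6029 were called there, with medians of -2.60 and -1.31. Tln1, which encodes talin, the activator that binds beta subunit tails, had 38.5, 40.4, and 37.3 FPKM in controls, 19.9, 13.7, and 13.8 FPKM in model cartilage, and 19.0, 19.1, and 14.0 FPKM after SYD. No KOA library reached the control range. It fell by 1.13 in SYD against control (SE 0.15, limma adjusted p = 0.0120) and by 1.26 in model against control (SE 0.23, limma unadjusted rule met, adjusted p = 0.0514). Fermt3 and Parvg, a kindlin and a parvin of blood cells, fell by 1.52 and 1.97 in SYD against control (limma adjusted p = 0.0267 and 0.0102). Git1 and Itgb1bp1, a focal adhesion scaffold and a regulator that binds the Itgb1 tail, were 0.76 and 0.81 higher there with limma adjusted p = 0.0165 and 0.0269. Both were below the fold required for a call. After rescaling to TPM they were at -0.68 and -0.61, above the median of all genes of -1.31. Rap1b, Actn4, and Flna, the highest genes of the list, were not called in any comparison.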

How the data were processed

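RNA of rat cartilage was sequenced in 9 libraries, and the authors deposited a single table that gives FPKM for each gene in each library, with gene positions and lengths. HISAT2 2.0.5 and a human build (hg38) are listed in the submitters' processing notes, although the table holds rat genes, and the rat build and counting tool are not given in the sources used here. Columns of values left out numbered 0. Groups were taken from the sample titles. The labels pair the library names CXTB1 to CXTB3, used as column names, with SYD.

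Whole reads were recovered from the deposited FPKM and gene lengths (tolerance 0.1 read), and 100% of values came out whole. The steps per read differed from what total reads would give, so the deposited values were not scaled by total reads alone. The library size implied by the steps was 3.00e+07 in control library 1 and 3.64e+06 in model library 1. Their recovered reads were 14914121 and 18815977, of which 14306782 and 1744769 were non-mitochondrial. The implied sizes ranked the 9 libraries in the same order as their non-mitochondrial reads. Log2(FPKM + 1) of 13898 genes with a mean of at least 0.5 FPKM was tested by limma 3.58.1 (R 4.3.3) with a trended prior, 2 groups per fit, and Benjamini-Hochberg adjustment over all genes. Shares and single values were tested by two-sided exact permutation. A call required an unadjusted p under 0.05 with a log2 fold change beyond 1 in either direction. The limma fit was tested on simulated data. Members, lists, and tests were chosen with earlier results of these data known. Genes named besides the members came from the 3 highest genes of a list, its genes with an adjusted p under 0.05 (at most 5), and the 3 genes most correlated with a member. Most cell type markers and some correlated genes that meet this rule are given only in counts or left out. Itgb4 and the markers at 0 were named after their values were seen.

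Alternatives were other pseudocounts, filters, scalings, a voom fit to recovered reads, a replicate block, all 9 libraries in 1 fit, and leaving out libraries. The lists covered other integrins, adhesion machinery, collagens, RGD ligands, laminins, and cell type markers. Figures were drawn with matplotlib 3.10.9.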

Additional observations from a re-analysis of the deposited data

How the results depend on the processing

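The number of members called moved most in SYD against model, where 1 was called. The count was 0 after rescaling to TPM and 0 with the replicate block, where 529 and 526 of 13898 genes were called. It was 4 with all 9 libraries in 1 fit, where 1220 genes were called. It ranged from 0 to 8 when single libraries were left out (8 without model library 2, where 2495 genes were called). In model against control the count of 1 became 7 after rescaling to TPM, where 10445 of 13898 genes were called. It ranged from 1 to 4 over left-out libraries (4 without model library 2), where 1309 to 3344 genes were called. In SYD against control the count of 4 became 2 after rescaling to TPM, where 6029 genes were called. Over left-out libraries it ranged from 1 to 5 (1 without control library 2, and 2 without control library 3 or SYD library 1). There 1788 to 2603 genes were called. The cause was not tested. The restriction to libraries under 50% mitochondrial reads was added after seeing the data.

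Rescaling to TPM moved the median of all genes to -2.60, 1.22, and -1.31 in model against control, SYD against model, and SYD against control, against -0.23, 0.22, and 0 as deposited. Relative to that median, Itgb3 stood at -2.39 in model against control and -1.39 in SYD against control, and Itgav at 1.17 and Itga10 at 1.51 in SYD against control. Directions turned in SYD against control for Itga1 (-0.52), Itga5 (-0.32), Itga11 (-0.25), Itgav (-0.15), Itgb1 (-0.70), and Itgb5 (-0.65), and in model against control for Itgb1 (-3.07). In model against control the voom fit turned Itga10 (0.56), Itga11 (1.06), Itgav (0.46), and Itgb5 (0.0873), quantile normalization turned Itga11 (0.22), Itgav (0.0859), and Itgb1 (-0.0638), and rescaling over non-mitochondrial genes turned Itgb1 (-0.20). With only libraries under 50% mitochondrial reads Itga1 (0.25), Itga5 (1.25), Itga10 (0.85), Itga11 (1.25), Itgav (1.34), and Itgb5 (0.62) turned there, as did Itga6 (-0.25) and Itgav (-0.0159) in SYD against model. Itga6 in SYD against model was also -0.0685 after quantile normalization and -0.23 in the voom fit. Itgb3 and Itga6 stayed below the control group under every alternative run.

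Over left-out libraries the model against control difference was -0.83 to 0.0749 for Itga10, -0.77 to 0.41 for Itga11, -0.74 to 0.33 for Itgav, -0.48 to 0.31 for Itgb1, and -0.96 to 0.0668 for Itgb5, and the SYD against model difference of Itga6 was -0.24 to 0.43. The share of collagen-binding subunits differed by -0.278 to 6.11 percentage points in model against control, 5.42 to 12.7 in SYD against model, and 8.80 to 16.1 in SYD against control.

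The replicate numbers were not taken to pair the libraries, since same-numbered control and model libraries correlated at -0.196, -0.267, and -0.0805. With the replicate block 1, 0, and 3 members were called in model against control, SYD against model, and SYD against control, against 1, 1, and 4 without it. Of all 13898 genes, 1668, 526, and 2259 were called with the block. The share of collagen-binding subunits then had exact p = 0.5, 0.25, and 0.25. Not every library correlated best with its own number. Itga1, Itga2, and Itga5 had no reads in model library 1, which held 1744769 non-mitochondrial reads. Itga2 also had none in model library 2, which held 11106680.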
